A study of Mus musculus and Homo sapiens with 65 samples.

Results

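The proteasome genes analysed here are the 48 genes, of 32287 in the expression tables, whose symbol is Psm followed by a letter from a to g and a number. They encode 8 alpha and 11 beta subunits of the core particle, 6 ATPases and 11 non-ATPase subunits of the regulatory cap, 5 activators or regulators, and 7 assembly chaperones. RNA-seq was performed on 9 libraries of mouse embryos cultured to the late 2-cell stage. Of these, 2 came from embryos given alpha-amanitin, an inhibitor of RNA polymerase II made by death cap fungi. Another 2 came from embryos injected as zygotes, at 0.5 days post coitum, with fluorescein-tagged morpholinos against Kdm5a and Kdm5b, which encode demethylases of lysine 4 of histone H3, and 2 from embryos that received mismatch control morpholinos for both genes. The other 3 libraries came from wild-type embryos. Strain, age, the dose and route of alpha-amanitin, and the number of embryos pooled per library were not stated in the sources used. No label says that the alpha-amanitin embryos were injected or given a vehicle, so effects of handling and of alpha-amanitin cannot be told apart.

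The proteasome degrades proteins marked with ubiquitin. Its core is a barrel of alpha rings around beta rings, and the beta rings hold the proteolytic sites. The cap recognises ubiquitin, removes it and unfolds the substrate with its ATPase ring, while alternative activators bind the ends of the core in place of the cap. In early embryos the proteasome takes part in the clearance of proteins stored in the egg, at the time when the embryo's own genome is first transcribed.

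Levels are given in FPKM, fragment counts scaled to transcript length and library size, as the authors deposited them. A level is therefore relative to the other RNAs of its library, and fewer cells of a kind and less RNA per cell cannot be told apart. Of the 48 members, 42 reached 1 FPKM in 2 or more of the 9 libraries and were tested. The 6 that did not were Psma8, Psmb3, Psmb8, Psmb11, Psme2 and Psmg2. Psmg4 passed through the Kdm5a+b morpholino libraries alone, Psmb9 through 1 alpha-amanitin and 1 wild-type library, and Psma5 and Psmg3 through the mismatch control and wild-type libraries. Psma3, Psmb1, Psmb5, Psmb7, Psmb10, Psmc1, Psmc2, Psmc5, Psmd13, Psme1 and Psmg1 passed through morpholino and wild-type libraries, and none reached 1 FPKM with alpha-amanitin. The filter took these members in through groups other than alpha-amanitin, so a fall in them is not independent of the filter. No label says that libraries of a group are separate collections, so p-values reflect how far these libraries scatter, and that scatter may be technical. Gapdh, a gene every cell uses, was at most 1.74 FPKM in every library. In wild type it had 0.484, 0 and 0.0396 FPKM, so a listed 0 may be a failed estimate or a level near the floor. The tables used hold no read counts, so the depth in reads is unknown. Each FPKM comes with bounds, whose median half-width over the members was 38.7% and 38.9% of the FPKM in the alpha-amanitin libraries, against 13.9% to 25.9% in the other 7. An FPKM above its own upper bound was found for 1 to 5 members per library, so some bounds are unreliable. Of 12 markers of the 2-cell embryo, all were tested. In alpha-amanitin embryos 10 were lower than in wild-type embryos, against 25.1% of all tested genes. The 12 summed to 14.4 and 16.2 FPKM with alpha-amanitin, against 312 to 432 FPKM in wild type. No alpha-amanitin library reached 1 FPKM for Zscan4c, Zscan4f, Tdpoz1, Tdpoz3, Tdpoz4, Ubtfl1, Usp17la or Obox6. These markers entered the test through the other groups, so a fall in them is not independent of the filter. Markers of cumulus and granulosa cells summed to 0.505 and 0.725 FPKM in alpha-amanitin libraries and to 10.3 to 14.7 FPKM in all others, of which Amhr2 made up most, and Foxl2 and Inha were listed at 0 in all 9 libraries. Sperm markers summed to at most 7.603 FPKM, blood markers to at most 14.1 FPKM, and oviduct markers to at most 0.95 FPKM in alpha-amanitin libraries, against 20.5 to 62.6 FPKM in the others. Epcam made up most of the oviduct sum (19.4 to 58.5 FPKM in those 7 libraries), and Foxj1, Pax8, Wt1 and Krt5 were under 1 FPKM in every library. Markers of the oocyte summed to 9231 and 10282 FPKM with alpha-amanitin, against 3530 to 3920 FPKM in wild type, and 2 of the 11, Zbed3 and Bmp15, rose, where 4.31% of all tested genes did. Zbed3 carried the sum, with 8251 and 9209 FPKM with alpha-amanitin and 3281, 3024 and 3101 FPKM in wild type. Their part in the results was not tested. Kdm5a had 19.5 and 15.3 FPKM with the Kdm5a+b morpholinos and 12.8 and 9.44 FPKM in the mismatch controls, and Kdm5b had 38.1 and 27.6 FPKM with the Kdm5a+b morpholinos and 55.3 and 39.6 FPKM in the mismatch controls. Morpholinos can act without lowering the mRNA, so these levels are no test of the labels.

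The promoters of 4 members are shown because these genes mark the ends of the pattern described next: Psmb4 and Psmd12 had the largest falls of the core and of the cap with alpha-amanitin, and Psme3 and Psme4 were the 2 members whose alpha-amanitin libraries both lay above all wild-type libraries. The sequences are from RefSeq (build GRCm38.p6), run 5′ to 3′ on the strand of the gene, and cover 250 bases before to 30 after the annotated start. Capitals mark matches to the motifs named below. Psmb4 lies at chr3:94886929-94887208 on the minus strand, Psmd12 at chr11:107479278-107479557, Psme3 at chr11:101315963-101316242 and Psme4 at chr11:30771525-30771804, each on the plus strand.

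Psmb4: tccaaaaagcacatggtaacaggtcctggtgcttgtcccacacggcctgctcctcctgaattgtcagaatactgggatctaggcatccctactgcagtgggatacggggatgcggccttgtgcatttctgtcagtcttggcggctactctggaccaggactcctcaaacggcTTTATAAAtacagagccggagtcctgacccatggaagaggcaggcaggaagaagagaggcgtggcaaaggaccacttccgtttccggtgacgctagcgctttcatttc
Psmd12: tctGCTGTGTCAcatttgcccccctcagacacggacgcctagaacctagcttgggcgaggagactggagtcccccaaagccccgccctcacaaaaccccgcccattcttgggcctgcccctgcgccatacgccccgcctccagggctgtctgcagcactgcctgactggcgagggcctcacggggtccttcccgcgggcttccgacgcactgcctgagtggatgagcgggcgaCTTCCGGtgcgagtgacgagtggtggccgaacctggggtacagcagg
Psme3: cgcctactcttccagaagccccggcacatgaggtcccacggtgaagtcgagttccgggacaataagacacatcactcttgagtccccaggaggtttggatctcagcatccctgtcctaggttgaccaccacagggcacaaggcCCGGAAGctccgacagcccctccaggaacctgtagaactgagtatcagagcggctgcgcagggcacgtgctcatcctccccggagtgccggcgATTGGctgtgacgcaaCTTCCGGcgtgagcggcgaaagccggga
Psme4: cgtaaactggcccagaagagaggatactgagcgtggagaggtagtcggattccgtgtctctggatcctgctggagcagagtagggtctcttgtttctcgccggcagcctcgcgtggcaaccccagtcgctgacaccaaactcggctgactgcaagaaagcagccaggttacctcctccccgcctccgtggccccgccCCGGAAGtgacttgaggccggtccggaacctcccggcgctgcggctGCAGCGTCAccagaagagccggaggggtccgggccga

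Windows from 250 bases before to 50 after the start were found for 40 members (43 windows), and Psma8, Psmb1, Psmb2, Psmb7, Psmc3, Psmd3, Psmd7 and Psmg2 had no entry. The letters CCGGAAG, the type bound by ETS factors, stood on either strand in 15 of the 43 windows (34.9%), against 8.9% of 32851 windows of all genes. The share was 35.5% of the core and cap windows and 33.3% of the others. It stood in the windows of Psmd12 (first base at -17 from the start), Psme3 (at -107 and 3) and Psme4 (at -53), but not in that of Psmb4, where TATAAA (at -76) overlapped its reverse complement (at -78). CCAAT, of the NF-Y type, was in 32.6% of the members' windows and 37.4% of all windows. TGACNNNGC, the type read by the stress factors NFE2L1 and NFE2L2, was in 14% and 12.4%, GCATGCGC, of the NRF1 type, in 7.0% and 2.7%, and TATAAA in 9.3% and 13.6%. A match is a description of letters and shows no binding. The windows of all genes cover 27025 genes, tested here or not, and windows of the tested genes alone were not compared.

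In wild-type embryos the most abundant member was not a subunit of the core or cap but Psme3, which encodes a nuclear activator of the core, at 229.8 ± 86.6 FPKM. Psme4, which encodes a large activator known for its role in the turnover of acetylated histones in mouse testis, followed at 124 ± 6.26 FPKM (SD, n = 3 each). The wild-type libraries had 322, 150.04 and 217 FPKM of Psme3 and 131, 119 and 122 FPKM of Psme4, and these ranges did not overlap. Psmb4, a non-catalytic beta subunit, came next with 65.5, 76.2 and 103 FPKM, below Psme3 and Psme4 and above the other members in each wild-type library. From Psmb2 (34.3 ± 9.82 FPKM) and the chaperone Psmd5 (28.5 ± 8.58 FPKM, SD, n = 3 each) downwards the ranges of neighbours overlapped. Psme3 and Psme4 together held 53.5%, 34.6% and 41.9% of the summed FPKM of all members in the wild-type libraries.

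**Figure D1:**
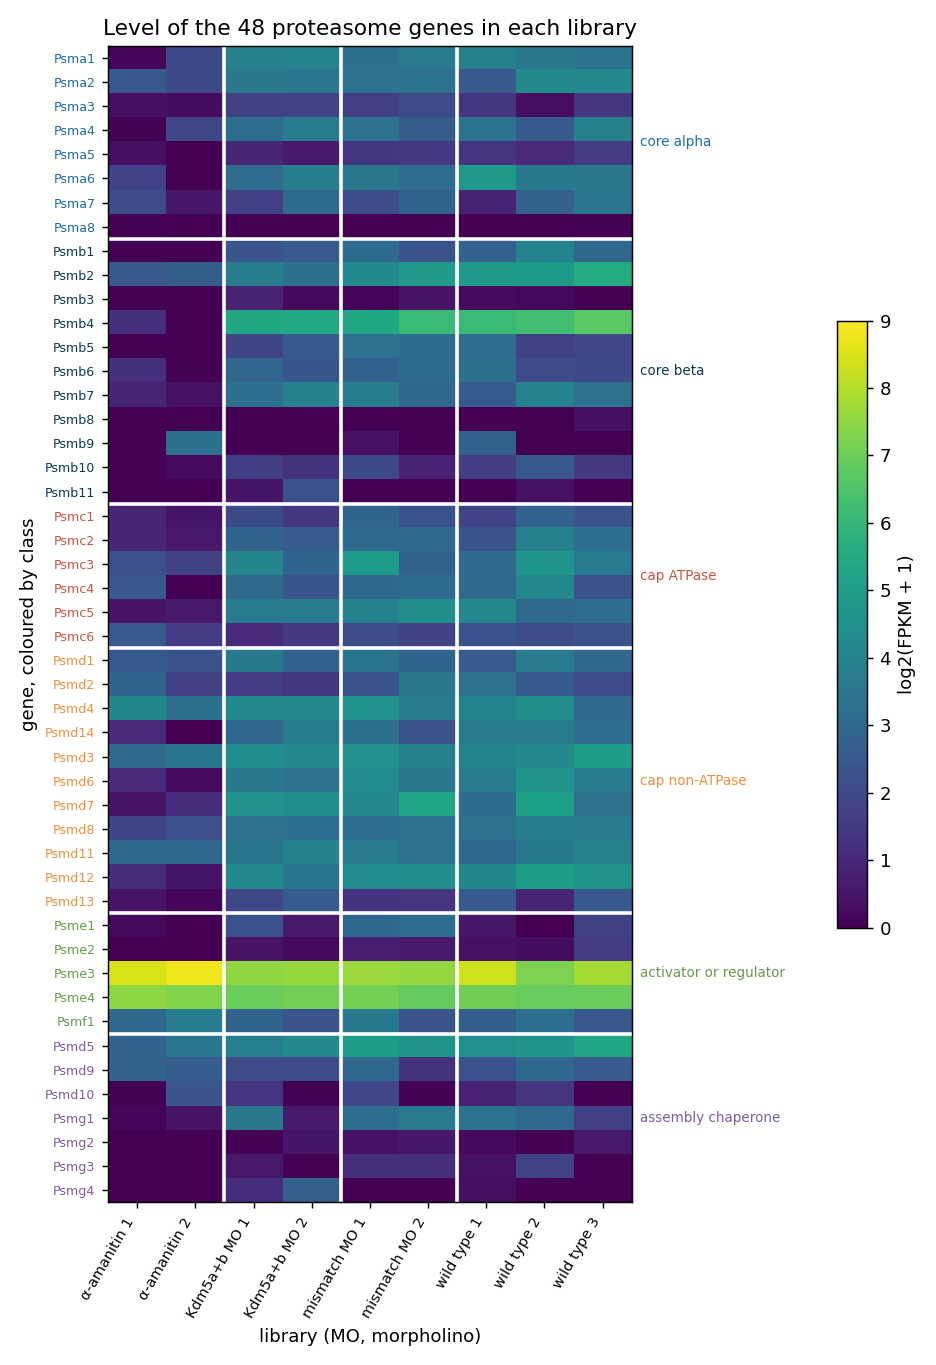
Level of each of the 48 proteasome genes (rows, in the order of their classes) in each of the 9 libraries (columns), as log2(FPKM + 1). Psme3 and Psme4 are the brightest rows in every library, and most core and cap rows are darker in the 2 alpha-amanitin columns than in the 3 wild-type columns.

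The subunits of 1 particle differed widely in wild-type mRNA level. Among the 7 constitutive alpha subunits the means ran from 1.19 FPKM for Psma3 to 16.5 FPKM for Psma6, and among the 7 constitutive beta subunits up to 81.5 FPKM for Psmb4, while Psmb3 had 0.200, 0.151 and 0 FPKM in the 3 libraries. The 6 ATPases ran from 3.70 FPKM for Psmc6 to 14.4 FPKM for Psmc3, and the 11 non-ATPase cap subunits from 3.51 FPKM for Psmd13 to 24.1 FPKM for Psmd12. Of the 48 members, 15 had an mRNA that matched another place in the GRCm38 genome over 200 or more bases at 90% identity or more. They were Psma2, Psma3, Psma4, Psma5, Psmb1, Psmb3, Psmb5, Psmb6, Psmb7, Psmc1, Psmd2, Psmd8, Psmd11, Psme1 and Psme2. The matched part ran from 23.1% of the mRNA for Psmd8 to 100% for Psmb6, and was 99.7% for Psma4, 97.5% for Psmc1 and 82.0% for Psme1. For Psmb3, 97.4% of the mRNA was so matched, with a best identity of 97.5%, and for Psma5 it was 79.6% with a best identity of 98.6%. Over the 31 constitutive core and cap genes, the median wild-type mean was 5.88 FPKM for the 13 with such a copy, from 0.117 to 13.8 FPKM, and 13.1 FPKM for the 18 without, from 3.51 to 81.5 FPKM. How the authors counted reads that map to several places was not stated in the sources used, so levels of the 15 members are uncertain. Whether the copies account for the low levels was not tested.

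**Figure D2:**
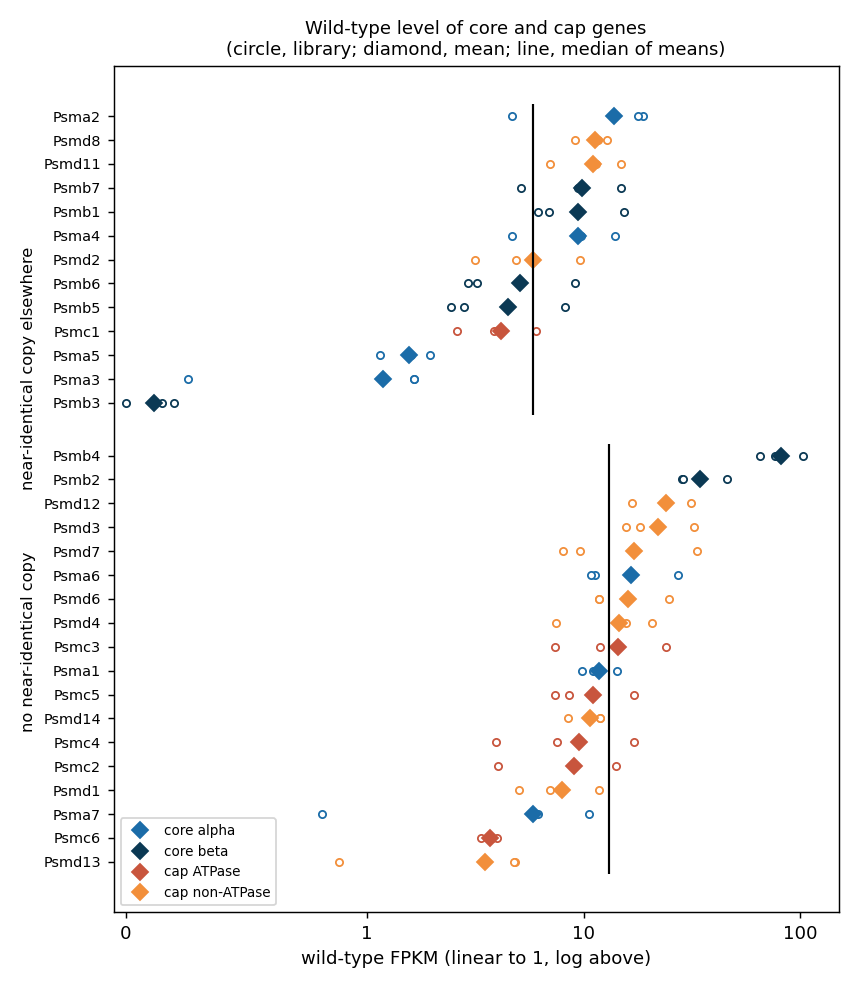
Wild-type FPKM of the 31 constitutive core and cap genes (horizontal axis, linear up to 1 and logarithmic above), split by whether the mRNA has a near-identical copy elsewhere in the genome. Circles are the 3 libraries, diamonds their mean and vertical lines the median of the means, 5.88 FPKM with a copy and 13.1 FPKM without.

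The alpha-amanitin comparison addresses which transcripts need new transcription to reach their 2-cell level. Of the 42 tested members, 21 fell, 1 rose and 20 did not pass the test of limma on log2(FPKM + 1), with a threshold of 0.05 on the Benjamini-Hochberg adjusted p over 13137 genes. The 21 are 50% of the tested members, where 25.1% of all tested genes fell, and 1 of 42 rose, where 4.31% of all rose. Among the 21, Psmb1, Psmb5, Psmb7, Psmb10, Psmc1, Psmc2, Psmc5 and Psmg1 passed the filter without any alpha-amanitin library. All tested genes went through the same filter. The median log2 difference of the members was -1.62, against -0.56 over all genes tested. Both alpha-amanitin libraries lay below all wild-type libraries for 25 tested members (59.5%), against 41.1% of all genes, and above them for 2 (4.76%), against 13.4%. Of the 22 members called, 12 passed in every alternative setting in which they could be tested: Psma1, Psma6, Psmb1, Psmb2, Psmb4, Psmb5, Psmb7, Psmc5, Psmd6, Psmd7, Psmd12 and Psmd14. Quantile normalization, which forces all libraries to 1 distribution, gave a median of 0.17 over all genes and left 12 members lower and none higher, so each of the other 10 lost its call there. Under it, 51.3% of the genes called over the whole table were lower, against 85.4% without it.

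**Figure D3:**
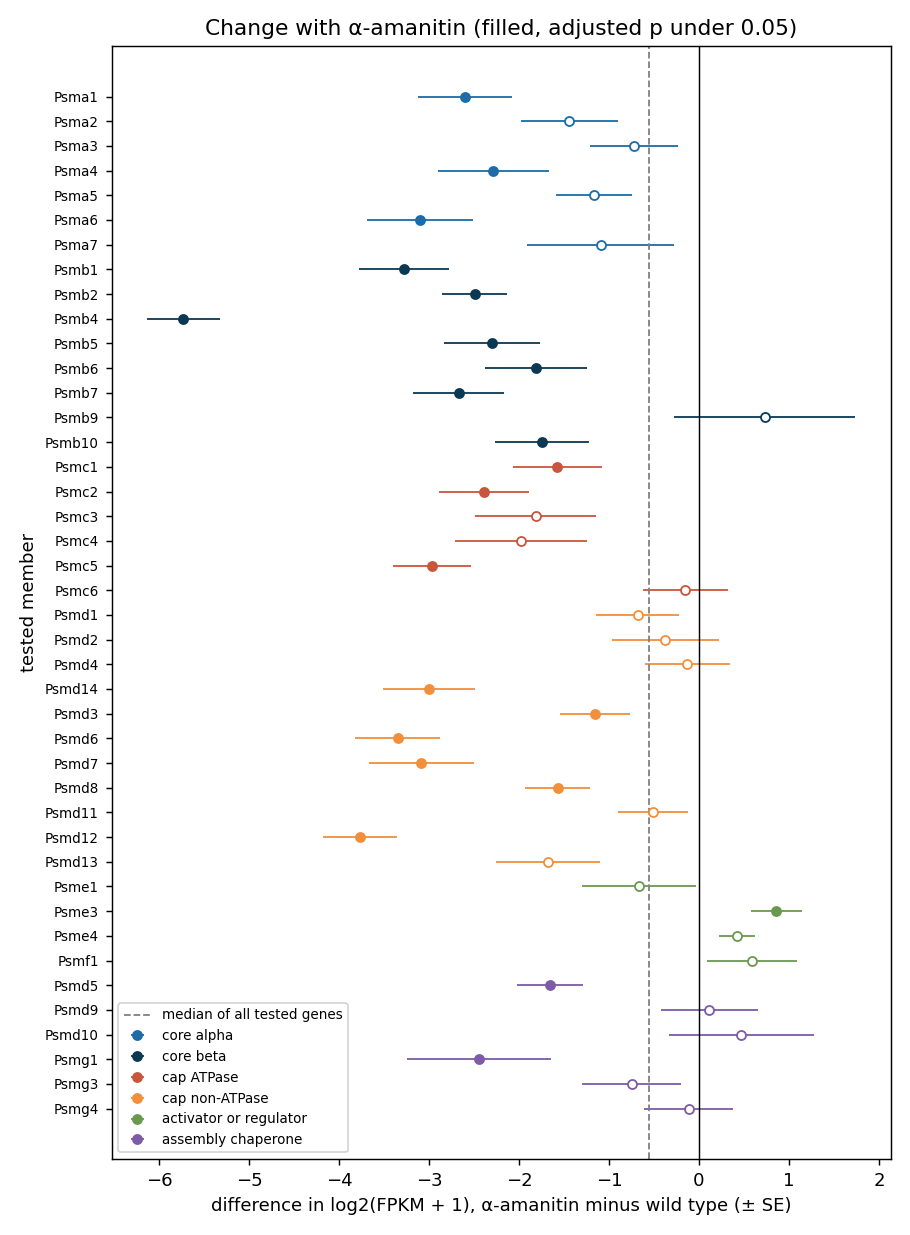
Difference in log2(FPKM + 1) between 2 alpha-amanitin and 3 wild-type libraries for the 42 tested members, coloured by class, with standard errors as bars. Filled points passed the adjusted p threshold of 0.05: 21 lie below 0, with Psmb4 farthest at -5.73, and 1, Psme3, lies above.

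Of the 8 tested beta members, 7 fell (87.5%, against 25.1% of all tested genes). The median log2 difference was -2.40, against -0.56 over all genes. Among the 7, Psmb1, Psmb5, Psmb7 and Psmb10 passed the filter without any alpha-amanitin library, so their falls are not independent of it. Psmb4 had 1.33 and 0 FPKM in the alpha-amanitin libraries and 65.5, 76.2 and 103 FPKM in the wild-type libraries, a log2 difference of -5.73 (SE 0.40, adjusted p = 6.24e-06). Psmb1, another non-catalytic subunit, had 0.00554 and 0 FPKM with alpha-amanitin, against 6.14, 15.3 and 6.95 FPKM in wild type, a log2 difference of -3.28 (SE 0.50, adjusted p = 0.000704). Psmb2, also non-catalytic, kept a measurable level, at 4.73 and 5.57 FPKM with alpha-amanitin and 28.5, 28.9 and 45.7 FPKM in wild type, a log2 difference of -2.49 (SE 0.36, adjusted p = 0.000494). In none of the 3 did the groups overlap. All 3 catalytic subunits fell. Psmb7, with trypsin-like activity, had 0.891 and 0.327 FPKM with alpha-amanitin and 5.15, 14.9 and 9.46 FPKM in wild type, a log2 difference of -2.67 (SE 0.51, adjusted p = 0.00267). Psmb5, with chymotrypsin-like activity, was listed at 0 and 0 FPKM with alpha-amanitin and had 8.22, 2.44 and 2.80 FPKM in wild type, a log2 difference of -2.30 (SE 0.53, adjusted p = 0.00812). Psmb6, with caspase-like activity, had 1.39 and 0.0358 FPKM with alpha-amanitin and 9.11, 3.23 and 2.93 FPKM in wild type, a log2 difference of -1.81 (SE 0.57, adjusted p = 0.0354). The call for Psmb6 was lost without alpha-amanitin replicate 2 (adjusted p = 0.244), without wild-type replicate 1 (0.0922), without Kdm5a+b morpholino replicate 1 (0.0502) and without mismatch control replicate 2 (0.0505). Psmb5 and Psmb6 have copies of 99.8% and 100% of their mRNA, at best identities of 99% and 92.2%. Psmb1 and Psmb7 have copies of 60.3% and 29.1% of theirs, at best identities of 91.3% and 93.1%.

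The immune and tissue-specific beta forms, which replace catalytic subunits in cells with interferon signals or in the thymus, varied between libraries. Psmb10, the counterpart of Psmb7, was the one that fell: 0 and 0.212 FPKM with alpha-amanitin, against 2.11, 4.56 and 1.92 FPKM in wild type, a log2 difference of -1.75 (SE 0.52, adjusted p = 0.0283). Its call was lost without either alpha-amanitin library (adjusted p = 0.137 and 0.0889) and without wild-type replicate 2 (0.0690). Psmb9, the counterpart of Psmb6, was above 1 FPKM in 1 library of each group, with 0 and 9.04 FPKM with alpha-amanitin and 5.96, 0 and 0 FPKM in wild type, and was at most 0.325 FPKM in the 4 morpholino libraries. It was the beta member nearest to 0, a log2 difference of 0.73 (SE 1.00, adjusted p = 0.612). It shares exon bases with Tap1 on the opposite strand, whose level was at most 0.434 FPKM in every library. Psmb8, the counterpart of Psmb5, was listed at 0 in 8 libraries and at 0.281 FPKM in wild-type replicate 3. Psmb11, the thymus form, had 0.411 and 3.83 FPKM with the Kdm5a+b morpholinos and at most 0.324 FPKM elsewhere. Psma8, the testis form of an alpha subunit, was at most 0.0393 FPKM.

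Of the 7 tested alpha subunits, which form the outer rings and gate the entry of the barrel, 3 fell (42.9%, against 25.1% of all genes). All 7 had a log2 difference below 0, against 65.8% of all tested genes. Their median was -1.44, against -0.56 over all genes. Psma6 had 2.51 and 0 FPKM with alpha-amanitin and 27.3, 11.3 and 10.9 FPKM in wild type, a log2 difference of -3.10 (SE 0.59, adjusted p = 0.00266). Psma1 had 0.0876 and 2.98 FPKM with alpha-amanitin, against 14.3, 11.0 and 9.86 FPKM in wild type: a log2 difference of -2.60 (SE 0.52, adjusted p = 0.00378). Psma4 had 0.0439 and 2.77 FPKM with alpha-amanitin, against 9.69, 4.67 and 13.96 FPKM in wild type: a log2 difference of -2.29 (SE 0.61, adjusted p = 0.0174). The groups did not overlap in these 3, but the 2 alpha-amanitin libraries differed from each other, with Psma1 and Psma4 higher in replicate 2 and Psma6 higher in replicate 1. Without alpha-amanitin replicate 1 the log2 difference of Psma1 was -1.66 and remained called (adjusted p = 0.0253), while that of Psma4 was -1.36 and was not (0.153). The call for Psma4 was also lost without wild-type replicate 3 (adjusted p = 0.0581). Psma3 was the alpha member nearest to 0, with 0.292 and 0.219 FPKM with alpha-amanitin and 1.66, 0.256 and 1.65 FPKM in wild type, a log2 difference of -0.72 (SE 0.49, adjusted p = 0.296). Psma2, Psma5 and Psma7 did not pass, at adjusted p = 0.0672, 0.0615 and 0.341. Psma2 did pass without wild-type replicate 1, at a log2 difference of -2.03 (adjusted p = 0.00438).

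Of the 6 ATPases of the cap, 3 fell (50%, against 25.1% of all tested genes). All 6 had a log2 difference below 0, against 65.8% of all tested genes. Their median was -1.90, against -0.56 over all genes. Psmc5 had 0.380 and 0.527 FPKM with alpha-amanitin and 17.2, 7.38 and 8.61 FPKM in wild type, a log2 difference of -2.97 (SE 0.43, adjusted p = 0.000504). Psmc2 had 0.968 and 0.525 FPKM with alpha-amanitin, against 4.04, 14.1 and 8.83 FPKM in wild type: a log2 difference of -2.39 (SE 0.50, adjusted p = 0.00490). Psmc1 had 0.946 and 0.435 FPKM with alpha-amanitin, against 2.61, 6.06 and 3.87 FPKM in wild type: a log2 difference of -1.58 (SE 0.50, adjusted p = 0.0352). With alpha-amanitin these 3 stayed under 1 FPKM in each library, while every wild-type library was above 2 FPKM. They passed the filter through morpholino and wild-type libraries, so these falls are not independent of it. Psmc2 lost its call under quantile normalization (adjusted p = 0.0818). Psmc1 lost its call without either alpha-amanitin library (adjusted p = 0.0779 and 0.178), without wild-type replicate 2 (0.0850) and without wild-type replicate 3 (0.0659). Psmc3, the most abundant ATPase mRNA, had 3.57 and 2.42 FPKM with alpha-amanitin and 7.36, 24.0 and 11.9 FPKM in wild type, without overlap, and did not pass, a log2 difference of -1.82 (SE 0.68, adjusted p = 0.0670). It passed without wild-type replicate 1 and without either mismatch control library, at adjusted p of 0.0499, 0.0394 and 0.0368. Psmc4 did not pass (adjusted p = 0.0657), and did without alpha-amanitin replicate 1 (0.0104) and without wild-type replicate 3 (0.0455). Psmc6 differed least, with 4.95 and 1.99 FPKM with alpha-amanitin and 3.77, 3.35 and 3.98 FPKM in wild type, a log2 difference of -0.15 (SE 0.47, adjusted p = 0.83).

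The 11 non-ATPase cap subunits were all tested, and 6 fell (54.5%, against 25.1% of all tested genes). The median log2 difference was -1.57, against -0.56 over all genes. The 4 largest falls were in subunits of the lid, the part of the cap that removes ubiquitin. Of the 11, all but Psmd1, Psmd2 and Psmd4 belong to the lid. Psmd12 had 1.24 and 0.433 FPKM with alpha-amanitin and 16.7, 31.4 and 24.3 FPKM in wild type, a log2 difference of -3.77 (SE 0.41, adjusted p = 7.57e-05). Psmd6 had 1.09 and 0.200 FPKM with alpha-amanitin, against 11.8, 24.8 and 11.8 FPKM in wild type: a log2 difference of -3.35 (SE 0.47, adjusted p = 0.000396). Psmd7 had 0.376 and 1.23 FPKM with alpha-amanitin, against 8.03, 33.4 and 9.62 FPKM in wild type: a log2 difference of -3.09 (SE 0.58, adjusted p = 0.00257). In each of these the groups were far apart. Psmd14, the deubiquitinase itself, had 1.11 and 0.00469 FPKM with alpha-amanitin and 11.9, 11.9 and 8.47 FPKM in wild type, a log2 difference of -3.00 (SE 0.51, adjusted p = 0.00134). Psmd8 and Psmd3, also lid subunits, fell less, by 1.57 (SE 0.36, adjusted p = 0.00782) and 1.16 (SE 0.39, adjusted p = 0.0454) on the log2 scale. The call for Psmd8 was lost without alpha-amanitin replicate 1 (adjusted p = 0.0511) and under quantile normalization (0.251), and that for Psmd3 in 14 of 18 alternative settings, among them all that leave out 1 library except wild-type replicate 1 (adjusted p of 0.0351 to 0.190 over the 9). The base subunits Psmd1 and Psmd2, which form its scaffold, and the ubiquitin receptor Psmd4 did not pass the test. Psmd4 was the subunit nearest to 0, with 16.6 and 9.01 FPKM with alpha-amanitin and 15.7, 20.7 and 7.44 FPKM in wild type, a log2 difference of -0.13 (SE 0.48, adjusted p = 0.86). Its sign turned without alpha-amanitin replicate 2, without wild-type replicate 2, on the TPM scale and under quantile normalization. The lid subunits Psmd11 (log2 difference -0.51) and Psmd13 (-1.68) also did not pass, at adjusted p = 0.358 and 0.0511. Psmd13 passed without wild-type replicate 2, at -2.22 (adjusted p = 0.00892).

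Of the 4 tested activators and regulators, 1 rose and none fell, where 4.31% and 25.1% of all tested genes did. The median log2 difference was 0.51, against -0.56 over all genes. Psme3 had 351 and 451 FPKM with alpha-amanitin and 322, 150.04 and 217 FPKM in wild type, a log2 difference of 0.86 (SE 0.28, adjusted p = 0.0431). Both alpha-amanitin libraries were above all 3 wild-type libraries. The call was lost in 14 of 18 alternative settings, and without any 1 library other than wild-type replicate 1, with adjusted p from 0.00715 to 0.235 over the 9 and a log2 difference from 0.59 to 1.14. Psme4 had 177 and 156 FPKM with alpha-amanitin and 131, 119 and 122 FPKM in wild type, a log2 difference of 0.42 (SE 0.20, adjusted p = 0.136). Its groups did not overlap, and it passed on the TPM scale only (log2 difference 0.58, adjusted p = 0.0446). Psme1 and Psme2 encode the subunits of the cytoplasmic, interferon-inducible activator and were low. Psme1 had 0.154 and 0 FPKM with alpha-amanitin and 0.502, 0 and 2.31 FPKM in wild type, a log2 difference of -0.67 (SE 0.64, adjusted p = 0.458). Psme2 was listed at 0 and 0 FPKM with alpha-amanitin and had 0.329, 0.226 and 2.01 FPKM in wild type. Psmf1, a regulator that binds the core, had 7.04 and 12.8 FPKM with alpha-amanitin and 5.60, 8.67 and 4.38 FPKM in wild type, a log2 difference of 0.59 (SE 0.50, adjusted p = 0.406).

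With alpha-amanitin, Psme3 and Psme4 made up most of the proteasome mRNA pool. They held 83.6% and 85.6% of the summed member FPKM with alpha-amanitin, against 53.5%, 34.6% and 41.9% in wild type. The 14 constitutive core genes summed to 19.5 and 15.3 FPKM with alpha-amanitin and to 183, 195 and 237 FPKM in wild type, without overlap. The 17 cap genes summed to 64.6 and 44.2 FPKM with alpha-amanitin and to 158, 254 and 177 FPKM in wild type, also without overlap. Summed over all 48 members the difference was smaller, at 631 and 709 FPKM with alpha-amanitin and 845, 775 and 810.1 FPKM in wild type. These sums are descriptions and were not tested.

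**Figure D4:**
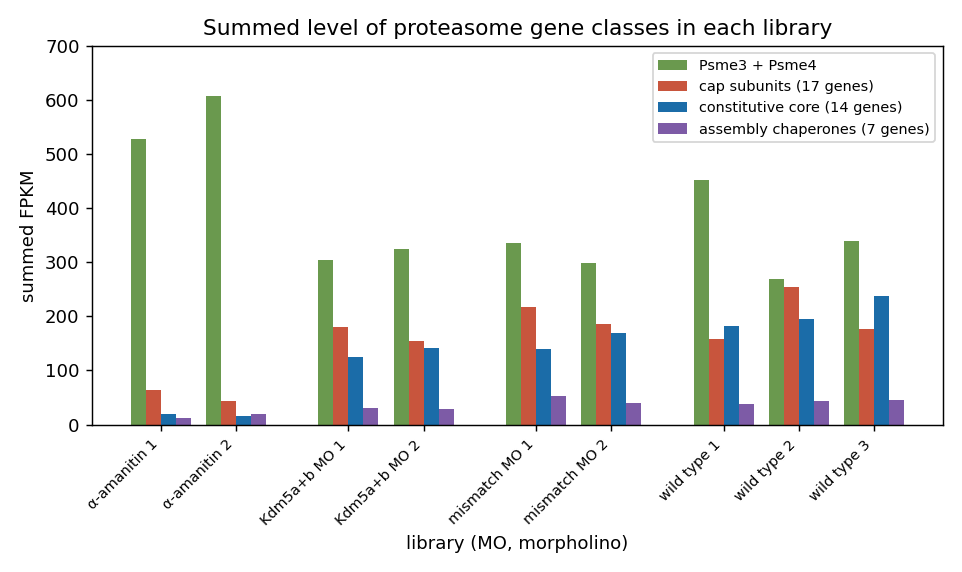
Summed FPKM of Psme3 and Psme4, of the 17 cap genes, of the 14 constitutive core genes and of the 7 assembly chaperones in each library. The alpha-amanitin bars for core (19.5 and 15.3 FPKM) and cap (64.6 and 44.2 FPKM) are below those of every other library, while those for Psme3 plus Psme4 (528 and 607 FPKM) are above.

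Of the 6 tested assembly chaperones, 2 fell (33.3%, against 25.1% of all tested genes), and the median log2 difference was -0.43, against -0.56 over all genes. Psmd5, which helps to assemble the ATPase ring, was the most abundant of them, with 6.16 and 10.6 FPKM with alpha-amanitin and 21.9, 25.4 and 38.2 FPKM in wild type, a log2 difference of -1.66 (SE 0.37, adjusted p = 0.00625). Psmg1, which guides the alpha ring, had 0.0915 and 0.387 FPKM with alpha-amanitin and 10.02, 7.36 and 2.27 FPKM in wild type, a log2 difference of -2.45 (SE 0.80, adjusted p = 0.0420). The groups did not overlap in either. Psmg1 passed the filter without any alpha-amanitin library, so its fall is not independent of it. Psmd5 lost its call without alpha-amanitin replicate 1 (adjusted p = 0.0531) and under quantile normalization (0.0741). Psmg1 lost its call without any 1 of the alpha-amanitin, mismatch control or first 2 wild-type libraries (adjusted p of 0.0593 to 0.151). Psmd9, another chaperone of the ATPase ring, was nearest to 0, with 6.17 and 5.18 FPKM with alpha-amanitin and 3.79, 7.13 and 4.97 FPKM in wild type, a log2 difference of 0.11 (SE 0.54, adjusted p = 0.89). Psmd10, Psmg3 and Psmg4 did not pass, and Psmg2 was at most 0.517 FPKM in every library.

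The Kdm5a+b morpholinos, which target both demethylases, were compared with their mismatch controls. No member passed limma's test, as did none of all 13137 genes (0%). At an unadjusted p under 0.05 there were 3 of 42 members, against 3.15% of all genes. The members' median log2 difference was -0.26, against 0.0031 over all genes. Both Kdm5a+b libraries lay below both control libraries for 12 tested members (28.6%), against 16.8% of all genes, and above them for 4 (9.52%), against 16.5%. Psmg4, counted among the 3 and the 4, passed the filter through its Kdm5a+b libraries alone. Psma5 and Psmg3, counted among the 12, passed it through control and wild-type libraries alone. Without 1 library the median lay between -0.31 and -0.02. The smallest two-sided p of an exact permutation over 2 and 2 libraries is 0.333.

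The 3 members with the smallest p were a chaperone, a beta subunit and an activator. Psmg4, which helps to assemble the alpha ring, had 1.24 and 5.70 FPKM with the Kdm5a+b morpholinos and 0.00216 and 0 FPKM in the controls, a log2 difference of 1.95 (SE 0.54, limma's unadjusted p = 0.00430, adjusted p = 1). It passed the filter through its Kdm5a+b libraries alone, so it had to differ there. Psmb2 had 12.9 and 8.93 FPKM with the Kdm5a+b morpholinos and 18.3 and 28.2 FPKM in the controls, a log2 difference of -1.01 (SE 0.40, limma's unadjusted p = 0.0272, adjusted p = 1). Psme1 had 3.87 and 0.556 FPKM with the Kdm5a+b morpholinos and 7.06 and 8.29 FPKM in the controls, a log2 difference of -1.65 (SE 0.70, limma's unadjusted p = 0.0380, adjusted p = 1). None of the 3 was called, although the groups did not overlap in any of them. The ATPases of the cap were singled out after their values were seen. Against 49.6% of all tested genes, the log2 difference was below 0 for all 6, from -0.87 for Psmc1 to -0.31 for Psmc4. In 4 of these 6 the groups did not overlap (66.7%, against 16.8% of all genes), yet the smallest unadjusted p among them was 0.140. Among the alpha subunits 4 of 7 had a difference above 0 (median 0.11), and among the non-ATPase cap subunits 6 of 11 (median 0.03). Psmd2, a scaffold of the base with a copy of 98.2% of its mRNA, had 2.07 and 1.73 FPKM with the Kdm5a+b morpholinos and 3.90 and 10.8 FPKM in the controls, a log2 difference of -1.39 (SE 0.65, limma's unadjusted p = 0.0558, adjusted p = 1), and was singled out after its values were seen. Psme3 had 182 and 190.2 FPKM with the Kdm5a+b morpholinos and 198 and 187 FPKM in the controls, a log2 difference of -0.05 (SE 0.31, limma's unadjusted p = 0.874, adjusted p = 1). Psme4 had 122 and 134 FPKM with the Kdm5a+b morpholinos and 137 and 113 FPKM in the controls, a log2 difference of 0.04 (SE 0.22, limma's unadjusted p = 0.841, adjusted p = 1). Psmb4 had 40.5 and 42.6 FPKM with the Kdm5a+b morpholinos and 39.9 and 66.1 FPKM in the controls, a log2 difference of -0.30 (SE 0.44, limma's unadjusted p = 0.512, adjusted p = 1).

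The mismatch controls against wild type ask how the injected controls compare with wild-type embryos. No member passed limma's test, as did none of all genes (0%), and 1 of 42 members had an unadjusted p under 0.05, against 4.69% of all genes. The members' median log2 difference was -0.01, the same to 2 decimals as over all genes. The control libraries lay below the wild-type libraries for 1 tested member (2.38%, Psmb2), against 8.85% of all genes, and above them for 2 (4.76%, Psma3 and Psme1), against 9.26%. Psme1 had 7.06 and 8.29 FPKM in the controls and 0.502, 0 and 2.31 FPKM in wild type, a log2 difference of 2.34 (SE 0.64, limma's unadjusted p = 0.00389, adjusted p = 0.857). Both control libraries were the highest for Psme1 of all 9. Psmb5 had 9.38 and 7.80 FPKM in the controls and 8.22, 2.44 and 2.80 FPKM in wild type, a log2 difference of 0.95 (SE 0.53, limma's unadjusted p = 0.103, adjusted p = 0.999). Psma3 had 2.23 and 3.29 FPKM in the controls and 1.66, 0.256 and 1.65 FPKM in wild type, a log2 difference of 0.85 (SE 0.49, limma's unadjusted p = 0.112, adjusted p = 0.999). This comparison shares its control libraries with the Kdm5a+b comparison and its wild-type libraries with the alpha-amanitin comparison.

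**Figure D5:**
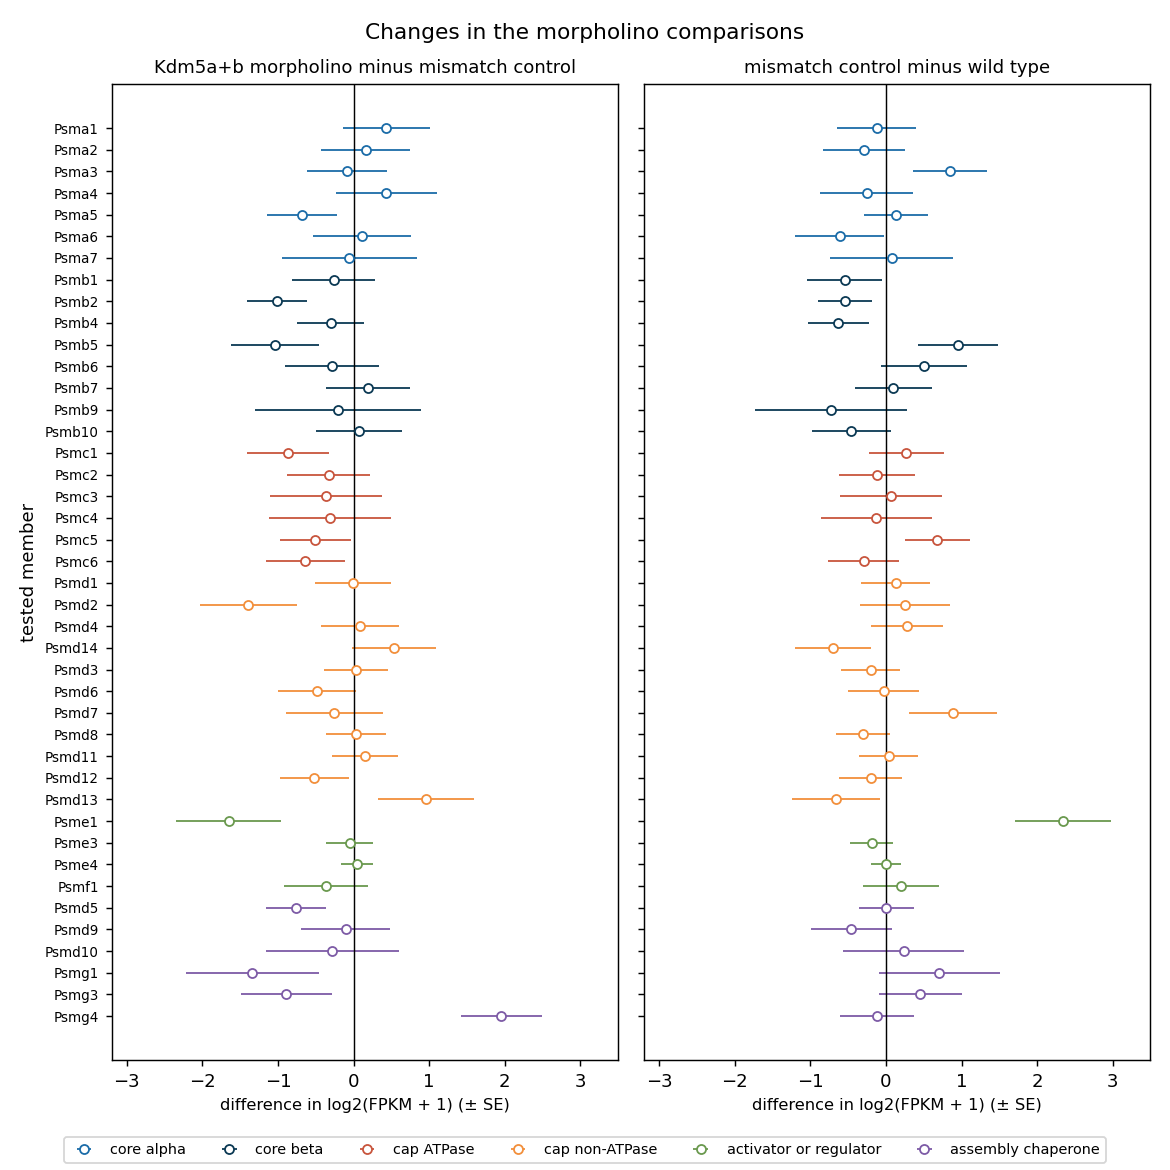
Difference in log2(FPKM + 1) for the 42 tested members between Kdm5a+b morpholino and mismatch control libraries (left, 2 against 2) and between mismatch control and wild-type libraries (right, 2 against 3), with standard errors as bars. No point passed the adjusted p threshold, and the points farthest from 0 are Psmg4 (1.95) and Psme1 (-1.65) on the left and Psme1 (2.34) on the right.

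Other genes of the ubiquitin and proteasome system were followed as a list of 29 genes, all tested. With alpha-amanitin 8 of the 29 fell and 2 rose, where 25.1% and 4.31% of all tested genes did, and the median log2 difference was -0.64, against -0.56 over all genes. The list was thus near the background, and none of it passed in either of the other comparisons. The falls included Ubb, which encodes a chain of ubiquitin, the ubiquitin-activating enzyme Uba6, the segregase Vcp, the ubiquitin receptor of the cap Adrm1, its deubiquitinase Usp14, and Akirin2, a factor for the nuclear import of proteasomes. Vcp had 0.0426 and 0.721 FPKM with alpha-amanitin, against 7.46, 8.60 and 10.1 FPKM in wild type: a log2 difference of -2.85 (SE 0.51, adjusted p = 0.00191). Adrm1 had 0 and 0.188 FPKM with alpha-amanitin, against 4.11, 3.75 and 3.60 FPKM in wild type: a log2 difference of -2.14 (SE 0.45, adjusted p = 0.00453). In both, every alpha-amanitin library was under 1 FPKM and every wild-type library above 3 FPKM. Uba6 also stayed under 1 FPKM with alpha-amanitin, at 0.930 and 0.931 FPKM. The filter took Vcp, Adrm1 and Uba6 in through other groups, so their falls are not independent of it. The rises were AI314180, listed in RefSeq as Ecpas, an adaptor of the proteasome, and the ubiquitin shuttle Rad23b. AI314180 had 72.6 and 109.9 FPKM with alpha-amanitin and 49.8, 31.9 and 60.1 FPKM in wild type, a log2 difference of 0.95 (SE 0.31, adjusted p = 0.0429). Rad23b had 81.2 and 106 FPKM with alpha-amanitin and 52.9, 57.9 and 54.3 FPKM in wild type, a log2 difference of 0.74 (SE 0.23, adjusted p = 0.0314). Nfe2l1, the transcription factor known for raising proteasome genes when proteasomes are inhibited, had 135 and 109 FPKM with alpha-amanitin and 121, 179 and 124 FPKM in wild type, a log2 difference of -0.19 (SE 0.24, adjusted p = 0.571).

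Exon bases of 11 members overlap a gene on the opposite strand in the GENCODE annotation of GRCm38: Psma4, Psma5, Psmb7, Psmb8, Psmb9, Psmc3, Psmd1, Psmd3, Psmd9, Psmd13 and Psme1. The share of their exon bases that overlaps another gene ran from 0.3% for Psmd3 to 25.5% for Psmd9. Whether the counting used strand was not stated in the sources used, so reads in the shared bases cannot be assigned to a gene. Exons of Psmb5, Psmd1 and Psmg3 also overlap a gene on the same strand (Mir686, Gm21972 and Gm26938), where strand would not separate the reads.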

How the data were processed

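RNA was measured by RNA-seq (RNeasy Micro extraction and TruSeq libraries, per the labels' protocols). The deposited tables give FPKM per gene, computed by the authors. Cufflinks is among the tools, and mm10 the build, per the submitters' processing notes, while the RNA-seq aligner and the annotation were not stated in the sources used. The members, classes and gene lists were chosen with earlier results of these data known.

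Testing was restricted to genes reaching 1 FPKM in 2 or more libraries (13137 of 32287). Differences in log2(FPKM + 1), which understate the change of low genes, were tested two-sided with limma 3.58.1 (R 4.3.3), in 1 group model over all 9 libraries (5 residual degrees of freedom, trended variance), with Benjamini-Hochberg adjustment over all tested genes and a threshold of 0.05. The fit was tested on simulated data. Near-identical copies were sought with minimap2 2.31-r1302 in GRCm38. The smallest two-sided p of an exact permutation over 2 and 3 libraries is 0.2. Per comparison, 19 alternatives were tried, of which the restriction to members without a copy was chosen after seeing the data.

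Values per library are given, by a rule, for the most abundant member of each class, its 3 largest called changes and the member nearest to 0, for immune, thymus and testis forms and Psme1 to Psme4, and for the 3 smallest p in the morpholino comparisons. Values of Psmb2, Psmb5, Psmb6, Psmd14 and Psmf1 with alpha-amanitin, of Psmb3 in wild type, and of Psmd2, Psmb4, Psme3 and Psme4 with the Kdm5a+b morpholinos were added outside it after they were seen. Lists of other proteasome-associated genes and of 2-cell, oocyte, cumulus and granulosa, sperm, blood and oviduct markers were also used, and 2 genes counted in the first of these lists are not reported here by name.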

Additional observations from a re-analysis of the deposited data

How the results depend on the processing

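Between 15 and 21 members were lower with alpha-amanitin when 1 library was left out, and the median log2 difference lay between -1.82 and -1.36. With the replicate block 17 were lower and none higher (0), at a median of -1.48. No shift shared by replicate number was seen over all tested genes. The correlations of replicate 1 minus replicate 2 between groups were -0.03 (alpha-amanitin and wild type), 0.04 (Kdm5a+b and mismatch control) and -0.04 (mismatch control and wild type). They leave out wild-type replicate 3 and cannot show that the numbers carry no pairing. The median was -2.36 with a pseudocount of 0.1, -1.30 with no filter, -2.34 with a mean FPKM of 5 or more, -2.02 on the TPM scale and -0.60 after quantile normalization, which left 12 members lower. The count called higher was 2 on the TPM scale and 0 with no filter, quantile normalization, only the 2 groups compared, no variance trend or array quality weights, and 0 to 1 with 1 library left out. Members without a copy gave 14 lower and 1 higher of 29, with a median of -1.68. No member was called in either morpholino comparison under any of the 19 alternatives. The log2 difference changed sign on the TPM scale for Psmd4 (0.017), and after quantile normalization for Psma3 (0.29), Psmc6 (0.85), Psmd1 (0.30), Psmd2 (0.58), Psmd4 (0.57), Psmd11 (0.36) and Psmg4 (0.10). With 1 library left out it ranged from -0.65 to 0.34 for Psmc6, -0.98 to 0.24 for Psmd2, -0.54 to 0.28 for Psmd4, -0.68 to 1.61 for Psmd10, -0.066 to 0.32 for Psmd9 and -0.17 to 0 for Psmg4. The cause was not tested. Depth in reads is unknown, which limits low members.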
